A study of Mus musculus with 16 samples.

Results

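The kidney cortex of mice that had lost both Vhl and Pbrm1 from tubule epithelium was compared with that of wild-type mice on 8 Affymetrix arrays, 4 for each genotype, out of 16 in the series. The members were chosen by their labels alone, as the 4 arrays titled as double mutants and the 4 titled as wild type, and every gene with a single-symbol probe set was examined. Double mutants carried floxed alleles of both genes and the Ksp-Cre transgene (Vhl F/F;Pbrm1 F/F;Ksp-Cre), on a mixed background of C57BL/6, BALB/c and 129. Wild-type mice were C57BL/6, with no floxed allele and no transgene named. All mice were 3 months old and ate a normal diet. Strain and the transgene therefore differ together with the deletions and cannot be told apart from them in this comparison. The 4 Vhl F/F;Ksp-Cre arrays (Vhl mutants) and the 4 Pbrm1 F/F;Ksp-Cre arrays (Pbrm1 mutants), which share the mixed background of the double mutants by their labels, are used only to show where the double mutants differ from them. The stated purpose of the study was to look for early transcriptional events that might matter when clear cell renal cell carcinoma (ccRCC) forms.

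VHL is the substrate-recognition subunit of a ubiquitin ligase that binds hydroxylated hypoxia-inducible factor (HIF) alpha subunits and sends them for degradation. When it is lost, HIF accumulates in normal oxygen and activates genes of glucose uptake, glycolysis, blood vessel growth and oxygen sensing. PBRM1 (BAF180) is a bromodomain subunit of PBAF, a SWI/SNF complex that moves and ejects nucleosomes. Both genes are tumour suppressors that are often lost together in ccRCC. Ksp-Cre uses regulatory sequence of Cdh16, the gene of a kidney-specific cadherin, so recombination takes place in tubule cells, while the cortex also contains glomeruli, vessels, stroma and immune cells that keep both genes. In such bulk samples fewer cells of a type and less RNA per cell cannot be told apart.

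Expression is given on the log2 scale of robust multi-array averaging (RMA), and array medians lay between 4.55 and 4.61. A level below 3.33, the highest lower quartile of any array, was taken as background. Array-to-array correlations were 0.991 to 0.994 among wild-type arrays and 0.992 to 0.995 among double mutants. The description numbers, which may mark animals, join wild-type replicates 1 and 2, wild-type replicates 3 and 4, and double mutant replicates 1 to 3. Double mutant replicates 2 and 3 carry the same description and may be the same sample, and 2383 genes were called against wild type with them averaged as 1 array. In the data, double mutant replicate 3 lay with replicate 4. Among called genes, 68 had replicates 1 and 2 separated from 3 and 4 by at least 0.5, against 0 and 1 for the other pairings. Arrays sharing a number are marked L and R, except double mutant replicates 2 and 3, both R, and these marks are not explained. Correlations of deviations were -0.15 and -0.20 for wild-type arrays sharing a number, and -0.47 to -0.30 for other wild-type pairs. Arrays sharing a number were also the most alike in Vhl mutants (-0.16 and -0.10) and Pbrm1 mutants (-0.17 and -0.18). Whether each array came from its own animal is not labelled. The p-values thus reflect only array-to-array spread, part of which may be technical. They treat arrays as nearly independent (block correlation 0.0838) and may be too small. The array carries 1 probe set for each deleted gene, and neither separated the genotypes. Vhl read 6.55, 6.24, 6.23 and 6.34 in wild type and 6.51, 6.08, 6.08 and 6.20 in double mutants, a difference of -0.12 ± 0.10 (SE, limma adjusted p = 0.55). Pbrm1 read 8.26, 8.21, 8.17 and 8.14 against 8.14, 8.19, 8.17 and 8.02, a difference of -0.07 ± 0.07 (adjusted p = 0.61). Where these probes lie relative to the deleted exons is not known here, so neither probe set checks the labels.

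Of 22180 genes tested, 2706 (12.2%) differed between double mutants and wild type at a limma adjusted p under 0.05. There were 1473 higher (6.64%) and 1233 lower (5.56%), and the median log2 difference over all genes was -0.02. This balance depended on the scaling: the higher and lower counts were 1236 and 1404 with arrays centred on their medians and 1436 and 1431 after quantile normalization. Large changes were more often rises: 553 called genes were at least 1.5-fold higher and 243 at least 1.5-fold lower, 166 against 68 at 2-fold, and 19 against 7 at 4-fold. The arrays did not overlap for 2437 of the called genes, while the same held for 17.7% of all genes tested (9.21% higher and 8.53% lower). With arrays averaged per description number, and replicate 3 placed with replicate 4, the count fell to 1339. It was 1212 without double mutant replicates 1 to 3. Against Vhl mutants 1408 genes (6.35%) were called, 842 higher (3.8%) and 566 lower (2.55%). Against Pbrm1 mutants 2260 (10.2%) were called, 1513 higher (6.82%) and 747 lower (3.37%). The higher and lower counts moved to 719 and 779 against Vhl mutants after quantile normalization, and to 1193 and 1079 against Pbrm1 mutants with arrays centred on their medians (1339 and 1059 after quantile normalization). The interaction, a test of whether deleting both genes changed a gene by other than the sum of the separate changes, passed for 583 (2.63%), 394 with a positive sign (1.78%) and 189 with a negative one (0.852%). After quantile normalization these signs were 296 and 275. The interaction count was 99 with arrays averaged per description number and 51 with replicate 3 also placed with replicate 4. These comparisons share the double mutant arrays. Wild type also enters the interaction. A strain or transgene difference shared by the mutant groups thus cannot be told apart there from the deletions. Fold changes come from the fitted model and differ slightly from differences of group means, and errors given with them are standard errors.

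**Figure D1:**
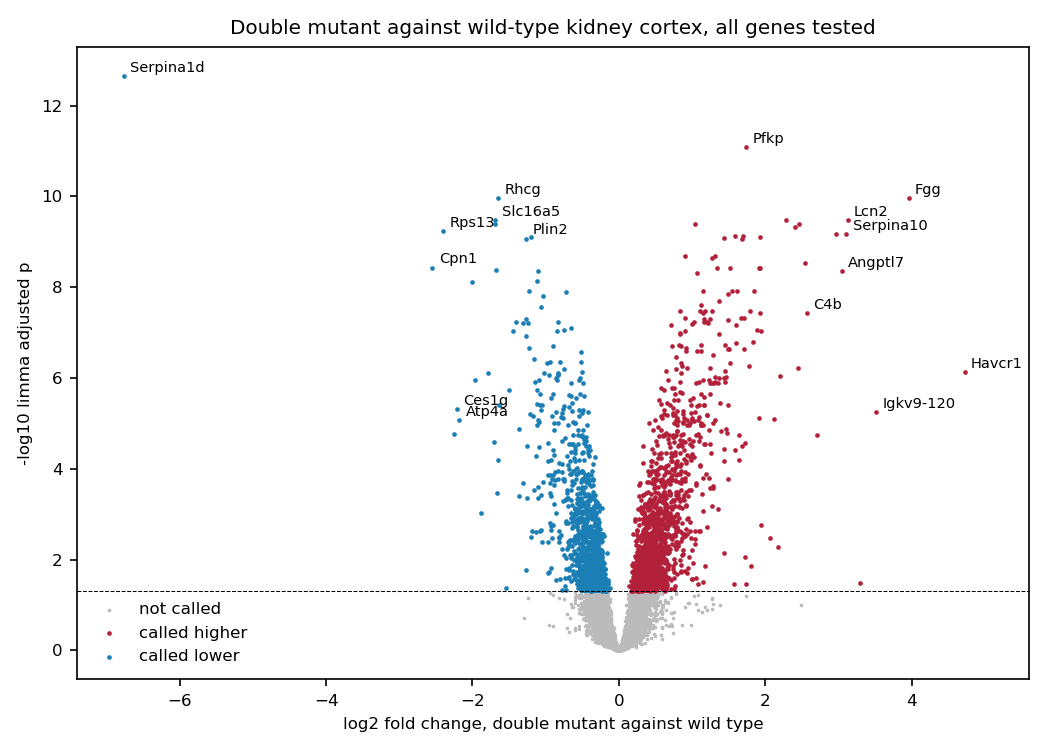
Each point is 1 of the 22180 genes, with the log2 fold change of double mutants against wild type on the x axis and -log10 of the limma adjusted p on the y axis. Called genes are red (1473 higher) or blue (1233 lower), the dashed line marks an adjusted p of 0.05, and Havcr1 and Serpina1d lie farthest out on either side.

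The lists with the highest medians were those of tubular injury, macrophages, immediate early genes and HIF targets, and the lowest medians belonged to intercalated cells, heat shock chaperones and the distal nephron. Counts in each list are to be read against the 6.64% of all genes called higher and the 5.56% called lower. Lists and members were chosen with earlier results of these data known, so these shares describe the lists and test nothing.

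**Figure D2:**
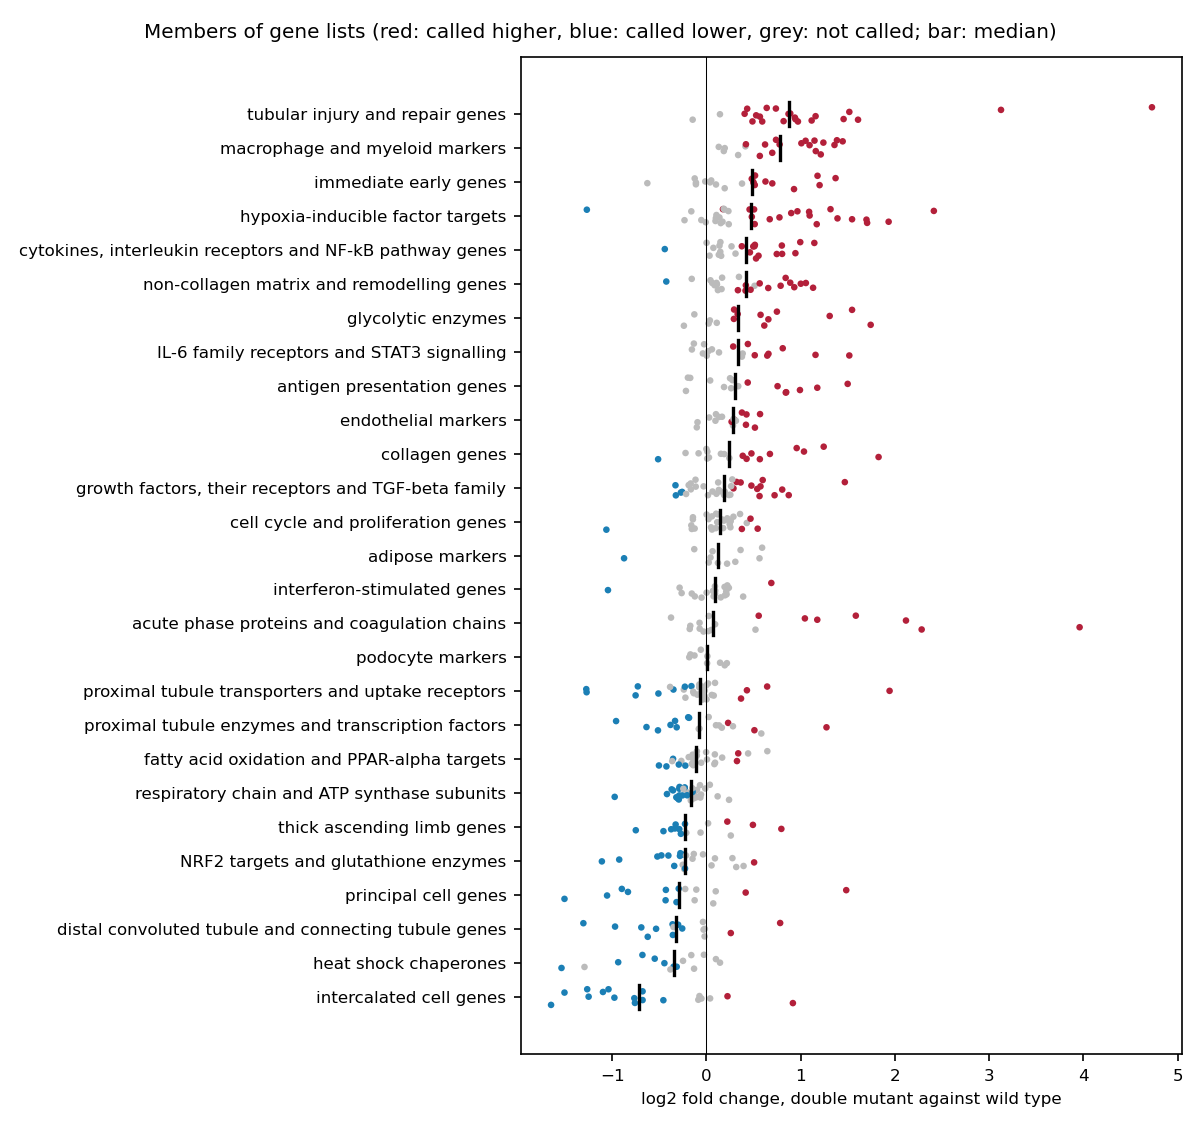
Each point is a measured member of a gene list, placed by its log2 fold change in double mutants against wild type, and the black bar is the list's median. Tubular injury genes have a median of 0.87 and intercalated cell genes one of -0.72.

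Genes of the HIF response and of glycolysis were higher in double mutants. Of 34 measured HIF targets, 19 rose and 1 fell, with a median of 0.47. The rises numbered 15 with arrays averaged per number and replicate 3 placed with replicate 4. The core letters of the hypoxia response element, ACGTG and GCGTG, were looked for in the 250 bases before the start of each gene, on both strands. For the genes of the HIF target and glycolysis lists that rose, 20 of 23 with a RefSeq promoter (87%) held either of them, against 8117 of 16990 of all tested genes (47.8%). The match is a description of these letters and shows no binding. Among the genes with the largest rises, the windows of Egln3 (chr12:54203875-54204124, minus strand), Slc16a3 (chr11:120948817-120949066, plus strand) and Pfkp (chr13:6648772-6649021, minus strand) are shown from RefSeq on GRCm38.p6, 5′ to 3′ toward the gene. Capitals mark each match.
Egln3: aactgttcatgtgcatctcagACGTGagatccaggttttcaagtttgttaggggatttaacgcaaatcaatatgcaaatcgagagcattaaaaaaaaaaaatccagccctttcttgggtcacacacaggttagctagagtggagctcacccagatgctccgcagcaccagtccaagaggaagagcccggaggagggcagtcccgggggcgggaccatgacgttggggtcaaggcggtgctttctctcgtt
Slc16a3: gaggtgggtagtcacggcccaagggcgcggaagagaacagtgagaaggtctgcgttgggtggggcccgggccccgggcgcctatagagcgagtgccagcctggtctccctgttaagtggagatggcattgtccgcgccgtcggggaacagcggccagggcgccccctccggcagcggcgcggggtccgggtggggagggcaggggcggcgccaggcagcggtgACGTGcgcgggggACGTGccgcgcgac
Pfkp: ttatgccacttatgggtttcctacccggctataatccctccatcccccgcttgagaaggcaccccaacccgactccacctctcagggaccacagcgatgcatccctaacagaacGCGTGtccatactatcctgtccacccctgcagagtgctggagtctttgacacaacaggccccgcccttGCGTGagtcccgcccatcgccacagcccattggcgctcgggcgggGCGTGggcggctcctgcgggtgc

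Egln3, a prolyl hydroxylase that marks HIF for VHL and is itself a HIF target, read 6.57, 6.70, 6.50 and 6.10 in wild type and 8.89, 8.80, 8.98 and 8.88 in double mutants. All double mutant arrays lay above all wild-type ones, by 5.33-fold (2.41 ± 0.14, adjusted p = 4.7e-10). Slc16a3, the lactate exporter MCT4, read 4.50, 5.02, 4.94 and 4.96 against 6.72, 6.82, 6.75 and 6.86, a 3.82-fold rise (1.93 ± 0.12, adjusted p = 8e-10). Plod2, a collagen lysyl hydroxylase, was 3.25-fold higher (1.70 ± 0.10), and Car9, the tumour-associated carbonic anhydrase IX, was 3.26-fold higher by its brighter probe set (1.71 ± 0.14), whereas its other probe set differed by 0.21. Hk2, the inducible hexokinase, read 4.89, 4.61, 4.96 and 4.73 in wild type and 6.64, 6.31, 6.17 and 6.27 in double mutants, a 2.92-fold rise without overlap.

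The single mutants place these rises differently. Egln3 had a mean of 8.66 in Vhl mutants and 6.58 in Pbrm1 mutants, and the double mutant level of 8.88 did not differ from the first by the test (0.23, adjusted p = 0.41) but did from the second (2.30, adjusted p = 7.4e-10). Across the list, 22 of 34 were higher than in Pbrm1 mutants (6.82% of all genes) and 4 were higher than in Vhl mutants (3.8% of all genes). Car9 went another way: its mean was 6.51 in wild type, 6.56 with Vhl deleted, 7.47 with Pbrm1 deleted and 8.22 with both deleted. Double mutants exceeded Vhl mutants by 1.66 (adjusted p = 1.3e-07) and Pbrm1 mutants by 0.75 (adjusted p = 0.00099).

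Plin2, the coat protein of lipid droplets, was the HIF target that fell. It read 8.36, 8.43, 8.55 and 8.52 in wild type and 7.06, 7.08, 7.28 and 7.35 in double mutants, 2.41-fold lower without overlap (-1.27 ± 0.08, adjusted p = 8.5e-10). Double mutants also lay below Vhl mutants (8.32) by 1.12 on the log2 scale and below Pbrm1 mutants (8.21) by 1.01, and the interaction was -0.86 (adjusted p = 0.00018). Other members did not pass. Epo, the classic HIF2 target, had means of 4.27 in wild type and 4.04 in double mutants (adjusted p = 0.35), Car12 of 10.04 and 10.14 (adjusted p = 0.33), and Hilpda, an inhibitor of lipolysis in droplets, of 5.65 and 5.64 (adjusted p = 0.99). Vegfa, the main endothelial growth factor, rose only from a mean of 10.12 to 10.29 (0.18 ± 0.05, adjusted p = 0.019), and this call was lost without double mutant replicate 1 (0.15, adjusted p = 0.063) or 2 (0.16, adjusted p = 0.052).

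Of the 10 genes for HIF subunits and oxygen-sensing enzymes 5 rose, a count that fell to 3 without double mutant replicate 1 or 3. Beside Egln3, the clearest were Arnt2, a partner subunit of the HIF alpha chains, and Egln1, the main oxygen-sensing hydroxylase. Arnt2 read 7.47 to 7.59 in wild type and 7.95 to 8.09 in double mutants (0.51 ± 0.08, adjusted p = 0.00011), and it was higher than in Vhl mutants (7.38) by 0.64 and than in Pbrm1 mutants by 0.53. Egln1 rose by 0.46 ± 0.06. Hif1a, the HIF1 alpha subunit, did not pass by its brighter probe set (-0.19 ± 0.09, adjusted p = 0.21), while its other probe set differed by 2.13 in the opposite direction, so its direction is unsettled.

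Glycolytic enzymes rose in 10 of 15 cases, with a median of 0.33. Pfkp, the platelet-type phosphofructokinase that commits sugar to glycolysis, had the smallest adjusted p of any rise. It read 7.73, 7.88, 7.66 and 7.94 in wild type and 9.55, 9.40, 9.59 and 9.63 in double mutants, 3.35-fold higher (1.74 ± 0.07, adjusted p = 8.1e-12). Pfkl, the liver-type form of the same enzyme, rose by 1.31 ± 0.09 and Ldha, which turns pyruvate into lactate, by 0.66 ± 0.07. Pfkp was also above its Vhl mutant mean of 9.01 by 0.53 (adjusted p = 0.0001), and its interaction was 0.77 (adjusted p = 0.00031). Of the list, 5 were higher than in Vhl mutants (3.8% of all genes) and 10 higher than in Pbrm1 mutants (6.82%). Among 7 gluconeogenic genes, 1 rose and 1 fell. Fbp1, the fructose bisphosphatase that opposes phosphofructokinase and is often lost in ccRCC, had means of 11.50 and 11.48 (adjusted p = 0.91).

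Secreted vasoactive and angiogenic factors rose in 9 of 19 cases. The count was 5 with arrays averaged per number and replicate 3 placed with replicate 4. Edn1, the vasoconstrictor endothelin, read 4.56, 5.06, 4.77 and 4.48 in wild type and 6.29, 6.23, 5.51 and 6.36 in double mutants, 2.62-fold higher (1.39 ± 0.18, adjusted p = 1.5e-05), and was above Vhl mutants (5.18) by 0.93. Adm, the vasodilator adrenomedullin, rose by 1.32 ± 0.14, to a mean of 7.0 beside 6.82 in Vhl mutants (difference 0.18, adjusted p = 0.52). Igfbp1, an insulin-like growth factor binding protein induced by hypoxia, rose by 1.47 ± 0.19. Angptl7, an angiopoietin-like secreted protein, was the largest rise of its family and followed the Pbrm1 genotype. It read 6.94, 7.12, 7.05 and 7.12 in wild type, 9.53, 9.53, 10.68 and 10.61 in double mutants. It averaged 10.67 with Pbrm1 alone deleted and 6.62 with Vhl alone deleted. The rise over wild type was 8.28-fold (3.05 ± 0.21, adjusted p = 4.5e-09), with double mutant replicates 1 and 2 about 1 log2 unit below 3 and 4.

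Genes of tubular injury and repair showed the widest shift of any list with more than 20 members: 21 of 23 rose and the median was 0.87. Havcr1, known as KIM-1, a phosphatidylserine receptor that injured proximal tubule cells put on their surface, was the largest rise among all genes above background. It read 3.71, 4.39, 4.80 and 4.45 in wild type and 8.64, 8.79, 9.06 and 9.67 in double mutants, 26.5-fold higher (4.73 ± 0.48, adjusted p = 7.3e-07). The groups were far apart, and the means of 6.28 in Vhl mutants and 5.96 in Pbrm1 mutants fell between them. Double mutants exceeded Vhl mutants by 2.78 (adjusted p = 0.00081) and Pbrm1 mutants by 3.11 (adjusted p = 0.00013), while the interaction of 1.16 did not pass (adjusted p = 0.42).

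Lcn2, the iron-siderophore binding protein NGAL of injured tubules, read 5.78, 5.48, 5.36 and 5.81 in wild type and 8.65, 8.48, 8.54 and 9.17 in double mutants. It rose 8.73-fold (3.13 ± 0.17, adjusted p = 3.3e-10), against means of 7.34 in Vhl mutants and 5.22 in Pbrm1 mutants, and its interaction was 1.78 (adjusted p = 0.00028). Cdkn1a, the cell cycle inhibitor p21, rose by 1.61 ± 0.12, Krt19, a keratin of simple ducts and dedifferentiated tubules, by 1.52 ± 0.15, and Vcam1, an adhesion molecule of tubules that fail to repair, by 1.46 ± 0.13. Each of these 3 was also above Vhl mutants, with differences of 0.79, 0.58 and 0.60. In the list as a whole, 14 of 23 were above Vhl mutants (3.8% of all genes), 18 above Pbrm1 mutants (6.82%), and 8 passed the interaction with a positive sign (1.78%). Krt7, a keratin of collecting ducts, did not pass (means 7.21 and 7.07, adjusted p = 0.4).

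**Figure D3:**
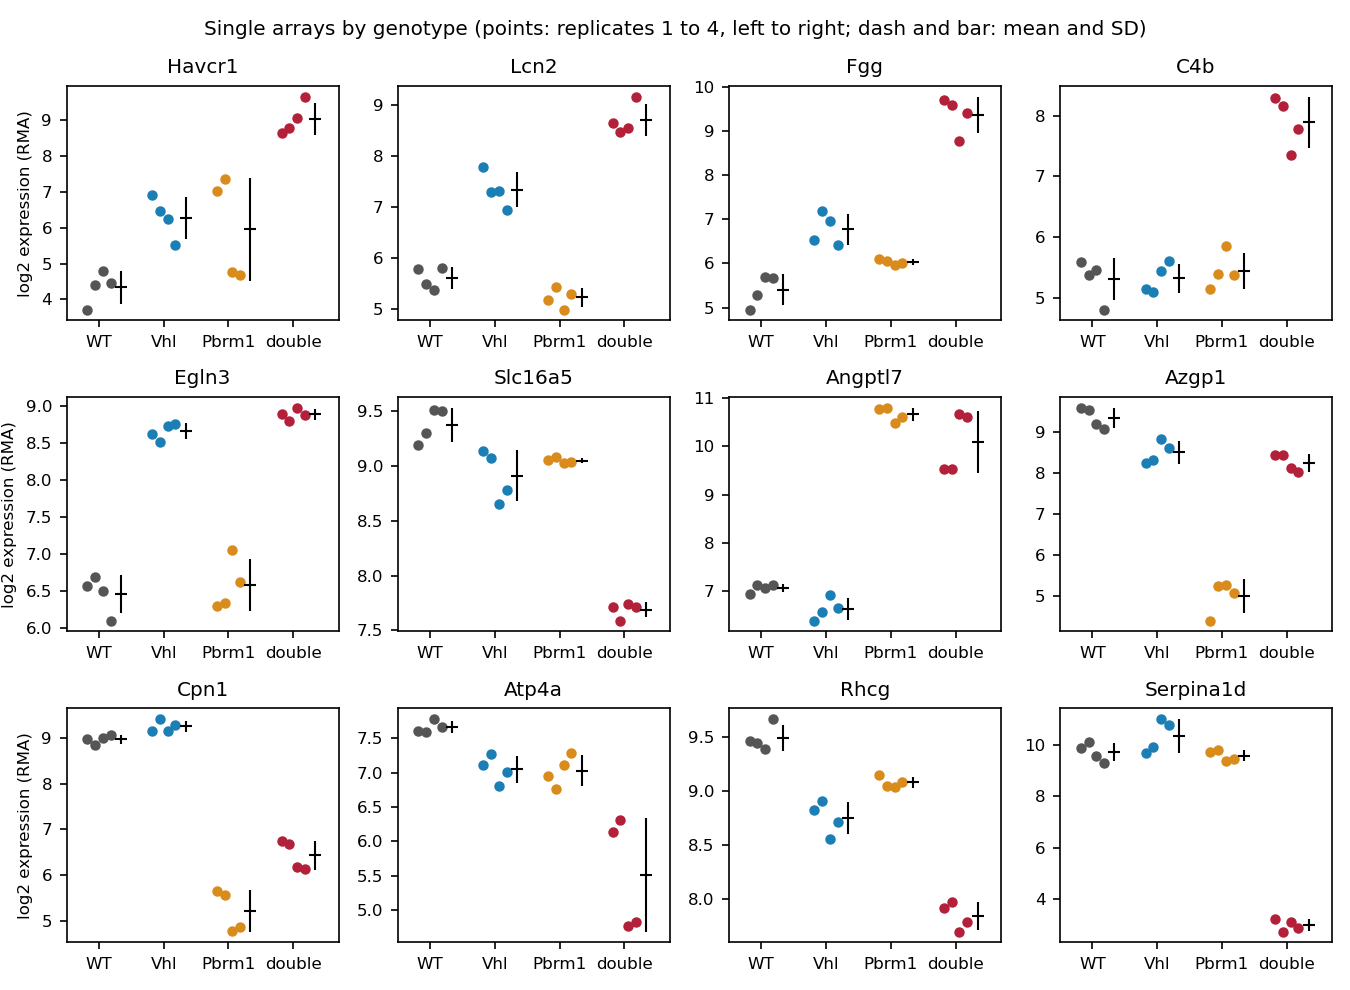
Each panel shows 1 gene in all 16 arrays on the log2 RMA scale, with points for replicates 1 to 4 from left to right in each genotype and a dash and bar for the mean and SD. Havcr1, Lcn2, Fgg and C4b are highest in all 4 double mutant arrays, Slc16a5, Atp4a, Rhcg and Serpina1d lowest, while Angptl7 and Cpn1 separate Pbrm1-deleted from Pbrm1-intact genotypes.

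Fibrinogen chains and other acute phase proteins, which the liver secretes in inflammation under the cytokine IL-6 and its transcription factor STAT3, formed the next group. Of 18 measured, 7 rose and the median was 0.07. The rises numbered 4 with arrays averaged per number and replicate 3 placed with replicate 4. The windows of Fga (chr3:83025903-83026152, plus strand), Fgb (chr3:83049864-83050113, minus strand) and Socs3 (chr11:117969367-117969616, minus strand) are shown because they are the 3 of 12 promoters (25%) among the acute phase and STAT3 genes that rose to hold TTCNNNGAA, the palindrome bound by STAT proteins. Of all tested genes with a promoter, 1329 of 16990 (7.82%) held it. Sequences are from RefSeq on GRCm38.p6, both strands were searched, and capitals mark the match.
Fga: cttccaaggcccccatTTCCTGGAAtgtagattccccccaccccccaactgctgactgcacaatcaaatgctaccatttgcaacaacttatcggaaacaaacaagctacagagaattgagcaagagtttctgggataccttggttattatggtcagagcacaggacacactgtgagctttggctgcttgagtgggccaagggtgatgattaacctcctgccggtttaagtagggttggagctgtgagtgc
Fgb: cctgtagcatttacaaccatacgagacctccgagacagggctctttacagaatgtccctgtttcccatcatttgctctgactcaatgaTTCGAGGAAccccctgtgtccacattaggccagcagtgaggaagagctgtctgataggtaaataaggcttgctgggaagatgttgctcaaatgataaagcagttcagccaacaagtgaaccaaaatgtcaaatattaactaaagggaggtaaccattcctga
Socs3: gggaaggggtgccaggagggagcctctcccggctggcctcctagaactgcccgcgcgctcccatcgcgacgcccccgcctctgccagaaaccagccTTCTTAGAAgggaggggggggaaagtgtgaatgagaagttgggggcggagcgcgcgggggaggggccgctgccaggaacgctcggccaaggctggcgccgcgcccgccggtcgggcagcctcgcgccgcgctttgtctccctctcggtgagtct

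Fgg, the fibrinogen gamma chain, read 4.95, 5.29, 5.70 and 5.67 in wild type and 9.70, 9.57, 8.78 and 9.39 in double mutants. It rose 15.6-fold (3.96 ± 0.20, adjusted p = 1.1e-10) with means of 6.77 in Vhl mutants and 6.03 in Pbrm1 mutants, and its interaction of 1.96 passed (adjusted p = 0.00056). Fga, the alpha chain, read 5.42, 5.50, 5.50 and 5.43 against 7.88, 7.94, 7.37 and 7.79, 4.87-fold higher (2.28 ± 0.13, adjusted p = 3.3e-10), with an interaction of 1.32 (adjusted p = 0.00027). Fgb, the beta chain, read 4.15, 4.23, 4.72 and 5.07 in wild type and 5.94, 6.00, 4.75 and 6.12 in double mutants, so replicate 3 overlapped wild type. Its rise of 1.18 ± 0.31 passed (adjusted p = 0.014) and was lost without double mutant replicate 4 (1.02, adjusted p = 0.063). Serpina3n, a secreted inhibitor of serine proteases, rose 4.34-fold (2.12 ± 0.26) and Cp, the copper oxidase ceruloplasmin, 3-fold (1.59 ± 0.10, interaction 0.82). Other acute phase genes did not follow, among them Hp, haptoglobin, with means of 4.94 and 5.46 (adjusted p = 0.22).

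Of 18 genes of IL-6 family receptors and STAT3 signalling, 8 rose and the median was 0.33. The count was 7 to 9 with any single array left out and 3 without double mutant replicates 1 to 3. Osmr, the oncostatin M receptor, read 6.66, 6.71, 6.99 and 6.73 in wild type and 8.38, 8.30, 8.22 and 8.27 in double mutants, 2.86-fold higher (1.52 ± 0.10, adjusted p = 3.7e-09). It exceeded its Vhl mutant mean of 7.74 by 0.55, and its interaction was 0.88 (adjusted p = 0.002). Stat3 read 8.81, 8.74, 8.59 and 8.75 against 9.46, 9.43, 9.27 and 9.32, a smaller rise without overlap (0.65 ± 0.06, adjusted p = 7e-07, interaction 0.59). Bcl3, a nuclear NF-kB cofactor, rose by 1.16 ± 0.13, and Socs3, the feedback inhibitor of STAT3, by 0.81 ± 0.14 by its brighter probe set, against 0.11 by the other. Il6 itself stayed below background, with means of 3.00 in wild type and 2.85 in double mutants (adjusted p = 0.61).

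The Serpina cluster on chromosome 12 held both the largest fall of all genes and some of the largest rises. It encodes liver-type protease inhibitors and hormone carriers in many near-identical copies, so probe sets may read more than 1 copy and the values of single Serpina1 genes are uncertain. Wild type also differed from all mutant groups in labelled strain, and the part of strain in the cluster's values was not tested. Serpina1d, an alpha-1-antitrypsin copy, read 9.89, 10.11, 9.59 and 9.33 in wild type and 3.22, 2.71, 3.09 and 2.86 in double mutants. All 4 double mutant arrays were below background, while Vhl mutants had a mean of 10.37 and Pbrm1 mutants one of 9.60 (adjusted p = 2.2e-13 against wild type). Serpina1c went from a mean of 5.28 to 3.02, also below background, against 5.41 and 5.26 in the single mutants. Serpina1f fell by 0.60 ± 0.13, a change 1.51-fold in size.

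Serpina10, the protein Z-dependent protease inhibitor of coagulation, read 4.83, 4.67, 4.65 and 4.63 in wild type and 7.78, 7.24, 7.87 and 8.26 in double mutants, 8.63-fold higher (3.11 ± 0.19, adjusted p = 6.8e-10). Serpina6, the corticosteroid carrier transcortin, read 3.76, 3.91, 3.76 and 3.67 against a range of 6.32 to 7.14, 7.83-fold higher (2.97 ± 0.18, adjusted p = 6.8e-10). The Vhl and Pbrm1 mutant means were 5.61 and 4.56 for Serpina10 and 4.06 and 3.90 for Serpina6, and both interactions passed (2.33 and 2.56). The rises and falls lay side by side: Serpina10 and Serpina6 come before Serpina1d and Serpina1c in gene order and Serpina3n after them.

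**Figure D4:**
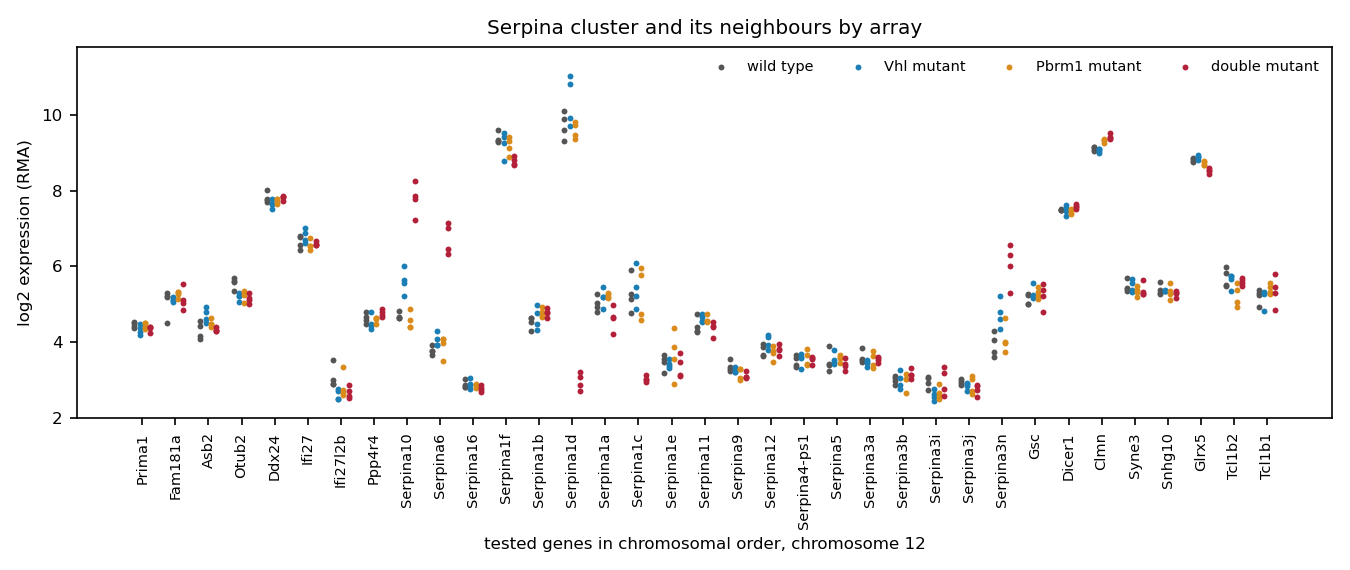
Tested genes of the Serpina cluster and its neighbours in their order on chromosome 12 (x axis), with the log2 expression of every array (y axis) coloured by genotype. Serpina10 and Serpina6 are higher in all 4 double mutant arrays than in any other array, and Serpina1d and Serpina1c are lower than in any other array.

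Of 18 complement genes 4 rose and 1 fell, the fall being 5.56% of the list, as among all genes. C4b, complement component 4, read 5.59, 5.38, 5.47 and 4.81 in wild type and 8.28, 8.15, 7.36 and 7.78 in double mutants, 5.96-fold higher (2.57 ± 0.21, adjusted p = 3.8e-08). Its means of 5.33 in Vhl mutants and 5.45 in Pbrm1 mutants were those of wild type to within 0.14, and the interaction was 2.42 (adjusted p = 7.5e-05). Hc, complement component 5, read 3.53, 3.52, 3.75 and 3.94 against 5.46, 5.50, 6.50 and 6.95, 5.48-fold higher, again with single mutant means of 3.8 and 3.68. C7, a subunit of the membrane attack complex, rose by 1.29 ± 0.16, and Serping1, the C1 inhibitor, by 1.15 ± 0.09. Cd59a, which shields cells from the attack complex, read 8.55, 8.47, 8.57 and 8.57 against 7.64, 7.48, 7.31 and 7.47, 2.09-fold lower (-1.06 ± 0.08, adjusted p = 2.7e-08). Hc and Cd59a are among genes whose expression or alleles are known to vary between mouse strains, and the part of strain in these values was not tested.

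Macrophage and myeloid markers rose in 16 of 21 cases, with a median of 0.78. Cd14, the lipopolysaccharide co-receptor, read 4.87, 4.48, 4.58 and 4.51 in wild type and 6.06, 6.08, 6.13 and 5.99 in double mutants (1.45 ± 0.15, adjusted p = 1.2e-06). Itgam, the CD11b integrin chain, rose by 1.39 ± 0.16, Cd68, a lysosomal protein of macrophages, by 1.36 ± 0.14, Lyz2, lysozyme, by 1.24 ± 0.20, and Ctss, cathepsin S, by 1.21 ± 0.10. Of the markers that define resident macrophages, Adgre1 (F4/80) had means of 4.98 and 5.39 (adjusted p = 0.26) and Csf1r of 7.82 and 8.01 (adjusted p = 0.39), and neither passed. As a difference from the wild-type mean, the list's median was -0.06 to 0.12 in wild-type arrays, 0.54 to 0.74 in Vhl mutants, -0.15 to -0.04 in Pbrm1 mutants and 0.66 to 1.06 in double mutants. The injury and cytokine lists were also higher in double mutant arrays, with medians of 0.70 to 0.99 and 0.26 to 0.44. In Vhl mutants these were 0.41 to 0.57 and 0.11 to 0.20. The acute phase list had medians of 0.03 to 0.20 in double mutants and -0.06 to 0.33 in Vhl mutants. The part of macrophages in the injury, cytokine and acute phase results was not tested.

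Cytokines, interleukin receptors and NF-kB pathway genes rose in 13 of 24 cases and 1 fell, with a median of 0.42. The count was 7 without double mutant replicates 1 to 3. Il1b, the inflammatory cytokine of myeloid cells, read 3.91, 4.07, 4.32 and 3.97 against 4.80, 5.21, 5.08 and 5.69 (1.15 ± 0.21, adjusted p = 0.00086). Tnfaip3, the A20 brake on NF-kB, rose 2-fold, from a mean of 4.76 to 5.76, and Birc3, an inhibitor of apoptosis, by 0.80 ± 0.10. Among 27 chemokines and receptors, 8 rose and 1 fell. Ccl9, a monocyte attractant, read 5.77, 5.56, 5.62 and 5.46 against 6.85, 6.88, 6.76 and 7.06 (1.29 ± 0.12), and Ccl5, an attractant of T cells and monocytes, rose by 0.92 ± 0.16.

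Antigen presentation genes rose in 7 of 16 cases, and MHC class II led. In Vhl mutants 7 of them also rose over wild type (453 of all 22180 genes), with a median of 0.35 beside 0.31 in double mutants. Double mutants were above Vhl mutants in 5 of the 16 (3.8% of all genes) and below them in 1 (2.55%). H2-Ab1, a class II beta chain, read 9.53, 9.35, 9.05 and 8.91 in wild type and 10.88, 10.87, 10.46 and 10.64 in double mutants (1.5 ± 0.14, adjusted p = 2.3e-07), above both Vhl mutants (9.99) and Pbrm1 mutants (9.72). H2-Aa, its alpha partner, rose by 1.18 ± 0.09 and H2-Eb1 by 0.99 ± 0.11. These genes are polymorphic between strains, and the part of probe mismatch in their values was not tested. Macrophage markers, whose list medians are given above (0.66 to 1.06 in double mutant arrays and 0.54 to 0.74 in Vhl mutants), moved with them, and their part was not tested either. Interferon-stimulated genes did not share this rise over wild type: 1 of 21 rose and 1 fell, and the median was 0.09. In Vhl mutants 6 rose over wild type (median 0.32), and in Pbrm1 mutants 4 fell (median -0.22), beside 453 and 543 of all 22180 genes. Double mutants lay below Vhl mutants in 6 of the 21 (2.55% of all genes) and above Pbrm1 mutants in 7 (6.82%). Xaf1 rose by 0.69 ± 0.13, Bst2, the tether of enveloped viruses, fell by 1.04 on the log2 scale, and Ifit1 had means of 6.06 and 5.94 (adjusted p = 0.67).

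Lymphocyte and plasma cell markers gave 2 rises in 14. Jchain, which joins polymeric immunoglobulins of plasma cells, read 3.67 to 4.67 against 5.94, 5.95, 6.96 and 6.79, 4.59-fold higher (2.20 ± 0.22, adjusted p = 9e-07). Immunoglobulin kappa segments were among the largest rises of all genes. Igkv9-120 read 2.97, 3.22, 4.14 and 4.23 against 6.58, 6.16, 7.97 and 7.81, and Igkv4-72 read 4.71, 4.64, 4.42 and 4.49 against 6.26, 6.50, 8.17 and 8.03. In both, double mutant replicates 3 and 4 were above 1 and 2 by more than 1 log2 unit, and such segments are near-identical copies whose single values are uncertain. Igkv9-120 was also above wild type in Vhl mutants (6.64) and Pbrm1 mutants (5.94). The T and B cell markers Cd3e (means 5.32 and 5.46) and Cd79a (3.95 and 4.15) did not pass.

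Matrix genes rose in part. Of 19 collagens 9 rose and 1 fell, and of 25 other matrix and remodelling genes 13 rose and 1 fell, with medians of 0.24 and 0.42. Without double mutant replicates 1 to 3 these counts of rises were 4 and 5. Col12a1, a fibril-associated collagen, read 5.36, 5.30, 5.27 and 5.36 in wild type and 7.52, 7.01, 6.91 and 7.16 in double mutants, 3.55-fold higher (1.83 ± 0.16, adjusted p = 1.6e-07) and above Vhl mutants (6.55) by 0.60. Col3a1 and Col1a1, the fibrillar collagens of scar, rose by 1.04 ± 0.21 and 0.96 ± 0.23 (the call of Col1a1 was lost without wild-type replicates 1 and 2, adjusted p = 0.053), with Vhl mutant means of 7.66 and 7.40 that double mutants did not exceed by the test. Dcn, the proteoglycan decorin, rose by 1.13 ± 0.19, Mmp14, a membrane-bound collagenase, by 1.06 ± 0.17, and Fn1, fibronectin, by 0.93 ± 0.12. For Fn1 the Pbrm1 mutant mean of 6.95 lay below wild type (7.82), and the interaction was 1.0 (adjusted p = 0.002). Of the list of other matrix genes 16 of 25 were above Pbrm1 mutants (6.82% of all genes) and 2 above Vhl mutants (3.8%).

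Growth factors, their receptors and TGF-beta family genes rose in 12 of 35 cases and fell in 4. With arrays averaged per number and replicate 3 placed with replicate 4, 9 rose and 1 fell. Hgf, the ligand of the MET receptor, rose by 0.87 ± 0.14, while Met itself fell by 0.33 on the log2 scale, a call lost without wild-type replicates 1 and 2 (adjusted p = 0.11). Egf, made in the distal nephron, read 11.48, 11.47, 11.48 and 11.52 against 11.30, 11.13, 11.23 and 11.20, a small fall without overlap (-0.27 ± 0.05, adjusted p = 0.00068). Pdgfb and its receptor Pdgfrb rose by 0.60 ± 0.11 and 0.72 ± 0.13. Endothelial markers rose in 7 of 17 cases, led by Emcn, a sialomucin of capillaries (0.57 ± 0.07), and Cdh5, the endothelial cadherin (0.52 ± 0.09). Of these markers 12 were above Pbrm1 mutants (6.82% of all genes), 0 above Vhl mutants (3.8%) and 1 below them (2.55%). In Vhl mutants 7 rose over wild type (453 of all 22180 genes), with a median of 0.31 beside 0.28 in double mutants. In double mutants 2 rose with arrays averaged per number and replicate 3 placed with replicate 4. Of 13 markers of smooth muscle, pericytes, fibroblasts and renin cells 5 rose, among them Rgs5 of pericytes (0.87 ± 0.10) and Notch3 (0.81 ± 0.10). The count was 4 with arrays averaged per number and replicate 3 placed with replicate 4. Double mutants were above Vhl mutants in 0 of the 13. In Vhl mutants 5 rose over wild type, with a median of 0.34 beside 0.29 in double mutants. These stromal markers moved with the matrix genes, with list medians of 0.16 to 0.47 in double mutant arrays against -0.03 to 0.01 in wild type, and their part in that result was not tested. The 9 podocyte markers had a median of 0.01.

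Others of the largest rises were in genes of mixed kinds. Arsj, a sulfatase family member, read 4.96, 5.47, 4.89 and 5.12 in wild type and 7.83, 7.67, 7.48 and 7.64 in double mutants (2.54 ± 0.17), with a second probe set at 0.22. Rps3a1, a small ribosomal subunit protein with many pseudogene copies, read 7.62, 7.57, 7.95 and 7.43 against 10.14, 9.92, 9.83 and 10.46 (2.46 ± 0.14), and its other probe set differed by 0.30. Rps13, another ribosomal protein with copies, moved oppositely, from a mean of 4.81 to 2.42, below background, against 5.26 and 5.48 in the single mutants. Such values of copied genes are uncertain. From levels below background in wild type, Ifi44l rose to 4.45, 3.97, 5.58 and 5.02, Sorcs1, a sorting receptor, to 4.50, 4.17, 5.58 and 5.17, and Trim12c to 4.15, 4.09, 4.89 and 3.77, and in both single mutants the means of Ifi44l and Trim12c were below background too.

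The largest falls above background took in metabolic and transport genes of several kinds. Cpn1, the catalytic subunit of the plasma carboxypeptidase N, read 8.98, 8.84, 9.01 and 9.06 in wild type and 6.75, 6.68, 6.18 and 6.14 in double mutants, 5.84-fold lower (-2.55 ± 0.17, adjusted p = 3.7e-09). Pbrm1 mutants were lower still (5.22) and Vhl mutants were not (9.26). 2610507I01Rik was also lower in both genotypes with Pbrm1 deleted, with a mean of 6.77 in wild type, 6.99 and 4.68 in the Vhl and Pbrm1 mutants, and 4.76 in double mutants. Pttg1, securin, which holds back the separation of sister chromatids, had means of 6.70, 6.59, 5.17 and 4.73 in the same genotypes. Tldc2, a protein of the TLDc family, had means of 8.47, 6.93, 8.38 and 6.80, so it was low where Vhl was deleted. Ces1g, a carboxylesterase that hydrolyses lipid esters, fell 4.64-fold to a mean of 5.79, beside 5.85 in Vhl mutants (difference -0.06, adjusted p = 0.94). Pbrm1 mutants, with a mean of 6.35, were also below wild type (-1.66, adjusted p = 0.00048). Double mutants did not differ from Pbrm1 mutants by the test (-0.56, adjusted p = 0.21). Ces1g was thus low in every mutant group. These groups share a labelled strain and the transgene, and the part of either was not tested.

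Other genes were lowest in double mutants. Slc16a5, a monocarboxylate transporter family member, read 9.19, 9.30, 9.51 and 9.50 in wild type and 7.71, 7.59, 7.74 and 7.71 in double mutants, 3.21-fold lower (-1.68 ± 0.09, adjusted p = 3.3e-10). Vhl mutants (8.91) and Pbrm1 mutants (9.05) lay between them, and the interaction was -0.90 (adjusted p = 0.00061). Slc46a3, a lysosomal solute carrier, went from a mean of 9.01 to 7.32 through 8.37 and 8.14 in the single mutants, with an interaction of -0.19 that did not pass (adjusted p = 0.53). Atp4a, the alpha subunit of the gastric-type proton pump, which the collecting duct also uses, read 7.61, 7.60, 7.78 and 7.66 against 6.14, 6.30, 4.76 and 4.83 (-2.18 ± 0.27), so double mutant replicates 3 and 4 were again apart from 1 and 2. Hsd3b3, a steroid dehydrogenase, fell by 1.70 on the log2 scale. Trim12a, a paralogue of the retroviral restriction factor TRIM5, read 5.91, 6.00, 5.42 and 5.91 against 3.92, 3.90, 4.62 and 3.72 (-1.78 ± 0.18). It moved in the opposite direction to its neighbour copy Trim12c.

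Nephron transport genes fell most in the collecting duct and distal tubule. Of 18 intercalated cell genes, 12 fell and 2 rose, with a median of -0.72, and the count of falls was 12 with any single array left out. These cells secrete acid or base through proton pumps and anion exchangers. Rhcg, an ammonia channel, read 9.46, 9.44, 9.39 and 9.67 in wild type and 7.92, 7.98, 7.70 and 7.79 in double mutants, 3.13-fold lower (-1.65 ± 0.08, adjusted p = 1.1e-10), with 8.75 in Vhl and 9.08 in Pbrm1 mutants. Its relative Rhbg read 8.41, 8.39, 8.64 and 8.70 against 7.11, 7.20, 6.88 and 6.94 (-1.5 ± 0.16). Slc26a4, pendrin, the chloride-bicarbonate exchanger of type B cells, read 8.36, 8.43, 8.36 and 8.34 against 7.27, 7.05, 7.09 and 7.03 (-1.26 ± 0.10, adjusted p = 5.1e-08). Slc4a1, the exchanger AE1 of type A cells, fell by 1.25 on the log2 scale and Insrr, an alkali-sensing receptor, by 1.10. Double mutants lay below Vhl mutants in 8 of the 18 (2.55% of all genes) and below Pbrm1 mutants in 12 (3.37%). Foxi1, the transcription factor of this cell type, did not pass, with means of 8.27 and 8.20 (adjusted p = 0.78).

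Principal cell genes fell in 8 of 15 cases and rose in 2, and the falls numbered 4 at fewest with a description number left out. Kcne1, a potassium channel subunit, fell by 1.05 on the log2 scale, Hsd11b2, which protects the mineralocorticoid receptor from cortisol, by 0.90, and Aqp3, a basolateral water channel, by 0.83. Aqp2, the vasopressin-regulated water channel, had means of 8.22 and 8.11 and did not pass (adjusted p = 0.61). Aqp4, a second basolateral water channel, rose from 7.73, 7.84, 6.85 and 7.09 to 9.02, 8.96, 8.77 and 8.73 (1.48 ± 0.19). Of 16 genes of the distal convoluted and connecting tubule 9 fell and 2 rose. Calb1, the calcium buffer calbindin, fell by 0.97 on the log2 scale, and S100g, the smaller calbindin, read 11.02, 11.09, 11.35 and 11.22 against 10.39, 10.51, 9.66 and 9.04. Trpv5, the calcium entry channel of the same cells, rose by 0.78 ± 0.11. Slc12a3, the thiazide-sensitive cotransporter, fell slightly, from 12.13 to 11.77 (-0.36 ± 0.06, adjusted p = 0.00018), to the level of Pbrm1 mutants (11.78).

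Thick ascending limb genes fell in 8 of 15 cases, which became 5 without double mutant replicate 4, and 3 rose. In Vhl mutants 6 of them also fell against wild type (398 of all 22180 genes), with a median of -0.22 beside -0.23 in double mutants. Double mutants were below Vhl mutants in 1 of the 15 (2.55% of all genes) and above them in 3 (3.8%). Bsnd, the chloride channel subunit barttin, fell by 0.75 on the log2 scale, close to its Vhl mutant level (7.34 against 7.24 in double mutants). Cdh16, whose promoter drives the Cre, fell from 10.79 to 10.47. Cldn16, the claudin of magnesium reabsorption, rose by 0.80 ± 0.15. Umod, uromodulin, was 12.01 and 12.23 in the group means, and its rise of 0.22 was lost without wild-type replicate 3 (0.19, adjusted p = 0.053) or double mutant replicate 4 (0.21, adjusted p = 0.051).

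Proximal tubule genes were split, with medians of -0.07 for both lists. Of 32 transporters and uptake receptors 8 fell and 4 rose, and of 19 enzymes and transcription factors 8 fell and 3 rose. The falls numbered 4 and 5 with arrays averaged per number and replicate 3 placed with replicate 4. Slc34a3, a sodium-phosphate cotransporter, read 8.11, 7.99, 8.14 and 8.07 in wild type and 6.98, 7.11, 6.76 and 6.44 in double mutants (-1.27 ± 0.11, adjusted p = 1.2e-07), below both single mutants (7.82 and 7.89) and with an interaction of -0.83 (adjusted p = 0.0064). Slc5a2, the glucose transporter SGLT2, read 11.23, 11.13, 11.22 and 11.32 against 10.48, 10.52, 10.53 and 10.38 (-0.75 ± 0.06), and Slc22a12, the urate transporter, fell by 0.51 on the log2 scale. Dpep1, a brush border dipeptidase, fell by 0.96 on the log2 scale, with Vhl and Pbrm1 mutant means (9.81 and 9.70) near the 9.82 of wild type. Slc7a12, an amino acid transporter, rose from 8.46, 8.93, 7.74 and 7.71 to 10.59, 10.65, 9.63 and 9.81 (1.94 ± 0.39), and Hao2, a hydroxyacid oxidase, rose by 1.27 ± 0.10 to a mean of 10.69, the same as in Pbrm1 mutants. Lrp2, the uptake receptor megalin, had means of 12.31 and 12.24 (adjusted p = 0.37). Among claudins and other junction genes 7 of 20 rose, led by Cldn1 (1.37 ± 0.12) and Cldn4 (1.16 ± 0.13), and 3 fell. The rises numbered 4 without double mutant replicates 1 to 3.

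**Figure D5:**
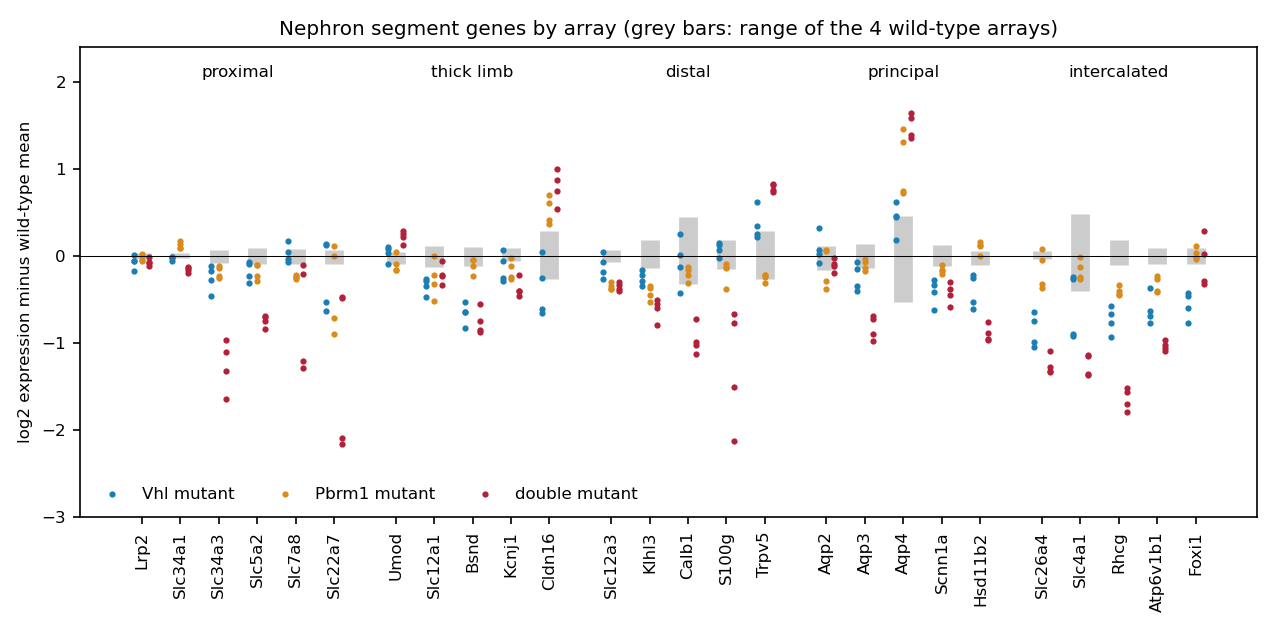
Segment genes (x axis) by array, as log2 expression minus the wild-type mean (y axis), with grey bars for the range of the 4 wild-type arrays and points for the 4 arrays of each mutant genotype. All 4 double mutant arrays lie below the wild-type bar for Slc26a4, Slc4a1, Rhcg and Atp6v1b1, whereas Foxi1 and Aqp2 overlap it and Aqp4 and Trpv5 lie above.

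Respiratory chain genes shifted down by small amounts. Of 35 respiratory chain and ATP synthase subunits 17 fell, with a median of -0.16. The count was 12 to 18 with any single array left out and 5 without double mutant replicates 1 to 3. Cox4i1, a nuclear-coded subunit of cytochrome oxidase, read 10.27, 10.30, 10.29 and 10.22 against 9.91, 9.89, 9.88 and 9.74 (-0.42 ± 0.06, adjusted p = 0.00013), with 10.22 in Vhl and 10.02 in Pbrm1 mutants. Sdhd of succinate dehydrogenase fell by 0.35 on the log2 scale and Ndufs4 of complex I by 0.32. Double mutants were below Vhl mutants in 10 of the 35 (2.55% of all genes) and below Pbrm1 mutants in 7 (3.37%). Of 28 genes of fatty acid oxidation 5 fell and 2 rose. Acads, the short-chain acyl-CoA dehydrogenase, fell by 0.50 and Slc25a20, the carnitine carrier, by 0.42 on the log2 scale.

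Lipid genes moved in both directions. Lpl, lipoprotein lipase, read 10.92, 10.88, 10.80 and 10.81 against 9.97, 9.93, 10.08 and 9.95, 1.83-fold lower (-0.87 ± 0.13, adjusted p = 0.00012), while Pnpla2, the lipase that starts triglyceride breakdown in droplets, rose by 0.55 ± 0.07. Of 16 cholesterol synthesis enzymes 4 fell and 1 rose, with Sc5d lower by 0.84 and Cyp51 higher by 0.58 on the log2 scale. The falls numbered 1 without wild-type replicates 1 and 2. Of 33 genes of amino acid metabolism 7 rose and 7 fell. The rises numbered 4 without double mutant replicate 1 and 2 without replicates 1 to 3, and the falls 3 without double mutant replicate 4. Arg2, the mitochondrial arginase, read 5.88, 5.93, 5.80 and 5.51 in wild type and 7.30, 7.10, 7.59 and 7.90 in double mutants, 3.28-fold higher (1.71 ± 0.16, adjusted p = 2.3e-07), with single mutant means of 6.20 and 5.70 and an interaction of 1.37 (adjusted p = 0.0018). Ivd, which breaks down leucine, fell by 0.72 on the log2 scale from 4 nearly identical wild-type values, and Gldc, the glycine cleavage enzyme, fell by 0.77. Cyp2c23, an arachidonic acid epoxygenase of the tubule, had means of 7.62 in wild type, 8.13 with Vhl deleted, 5.46 with Pbrm1 deleted and 6.26 with both deleted. Alas1, the first enzyme of heme synthesis, fell by 1.12 on the log2 scale.

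Oxidative stress and heat shock genes fell more often than they rose. Of 22 NRF2 targets and glutathione enzymes 10 fell and 1 rose, with a median of -0.23. The falls numbered 6 without wild-type replicates 1 and 2, and 3 with arrays averaged per number and replicate 3 placed with replicate 4. Osgin1, an oxidative stress growth inhibitor, fell by 1.11 on the log2 scale and had like means in all 3 mutant groups (7.97, 8.09 and 7.88), while Gsr, glutathione reductase, rose by 0.51 ± 0.07. Of 15 heat shock chaperones 7 fell, with a median of -0.35, and 3 fell without wild-type replicates 1 and 2. Against wild type, 7 also fell in Vhl mutants (median -0.29) and 8 in Pbrm1 mutants (median -0.26), beside 398 and 543 of all 22180 genes. Double mutants were below Vhl mutants in 0 of the 15 (2.55% of all genes) and below Pbrm1 mutants in 2 (3.37%). Hspa1a, the inducible HSP70, read 9.80, 10.02, 7.51 and 7.38 in wild type and 7.65, 7.53, 6.63 and 6.80 in double mutants, so wild-type replicates 3 and 4 overlapped the double mutants. Its call (adjusted p = 0.042) was lost without wild-type replicate 1 (-1.21), wild-type replicate 2 (-1.11), double mutant replicate 3 (-1.37) or double mutant replicate 4 (-1.41). Hsph1, its nucleotide exchange partner, fell by 0.93 on the log2 scale without overlap.

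Immediate early genes rose in 11 of 22 cases, with a median of 0.49, and 6 rose without double mutant replicates 1 to 3. As a difference from the wild-type mean, the list's median was 0.52, 0.49, 0.13 and 0.43 in double mutant replicates 1 to 4, lowest in replicate 3. Myc read 6.03, 6.38, 6.05 and 5.87 in wild type and 7.54, 7.36, 7.49 and 7.45 in double mutants, 2.59-fold higher (1.37 ± 0.11, adjusted p = 2e-08), above its Vhl mutant mean of 6.84 by 0.61 and its Pbrm1 mutant mean of 6.18 by 1.28. Egr1, a growth-factor-induced zinc finger factor, rose by 1.20 ± 0.14 and Nr4a1, an orphan nuclear receptor, by 1.18 ± 0.16. Of the list, 8 were above Vhl mutants (3.8% of all genes), 14 above Pbrm1 mutants (6.82%), and 6 passed the interaction with a positive sign (1.78%). Jun had means of 8.10 and 7.98, with wild-type replicates 1 and 2 at 8.48 and 3 and 4 at 7.74 and 7.69.

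Proliferation genes moved little. Of 30 cell cycle genes 3 rose and 1 fell, and the rises numbered 1 without wild-type replicate 1 or double mutant replicate 4. Mki67 had means of 5.54 and 5.97, with an adjusted p of 0.066. Mcm6, a subunit of the replicative helicase, was the fall (6.77 to 5.73), with double mutant replicates 1 and 2 at 6.18 and 6.23 and replicates 3 and 4 at 5.37 and 5.15. Of 21 SWI/SNF subunits 1 was called, below the background of 12.2%. It was Smarca2, the BRM ATPase, which went from 10.53 to 10.18 (-0.35 ± 0.06, adjusted p = 0.00074). Arid2, a PBAF subunit, had means of 8.65 and 8.77 and Smarca4, the BRG1 ATPase, of 8.53 and 8.48. Setd2, a histone methyltransferase lost in ccRCC, had means of 7.92 and 7.91. Bap1, a histone deubiquitinase of ccRCC that lies near Pbrm1, fell by 0.31, a call lost without double mutant replicate 4 (-0.26, adjusted p = 0.078).

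Because wild type and double mutants differ in labelled strain, genes known to vary between inbred strains were listed. This list was chosen with earlier results of these data known, so its counts describe it and are no independent check. Of 16 measured 5 rose and 4 fell, a share above that of all genes in both directions, with a median of 0.22. Gbp2b, an interferon-induced GTPase, read 3.40, 3.32, 3.40 and 3.44 against 5.39, 5.19, 5.14 and 4.64, and had means of 3.59 in Vhl mutants and 4.82 in Pbrm1 mutants. Wdfy1 had means of 6.62 in wild type, 6.61 and 7.56 in the Vhl and Pbrm1 mutants, and 7.52 in double mutants. Nnt, the mitochondrial transhydrogenase that carries a deletion in the C57BL/6J substrain, rose by 0.58 ± 0.06, with 8.68 in Vhl and 9.10 in Pbrm1 mutants. The mutant groups thus differed among themselves in these genes although their labels give the same mixed background, and the part of strain in the changes above was not tested. Floxed alleles also carry flanking chromosome from the strain in which they were made. Among the 50 tested neighbours of Vhl on chromosome 6, 25 on each side, 1 rose and 2 fell, with a median of 0.01. Among the 50 of Pbrm1 on chromosome 14, 2 rose and 6 fell, with a median of -0.02. Of all genes 6.64% rose and 5.56% fell. The 6 falls near Pbrm1 (Smim4, Nisch, Tnnc1, Bap1, Hacl1 and Oxnad1) all lay on the same side of it. Both rises (Il17rb and Itih1) lay on the other side. Tnnc1, cardiac troponin C, fell most of these 6, by 1.09 on the log2 scale, and its means in Vhl and Pbrm1 mutants were 6.46 and 6.28 against 6.25 in double mutants. The part of flanking chromosome in these values was not tested. Of 15 measured sex-dependent kidney genes 3 rose and 2 fell, and the rises numbered 1 without double mutant replicate 4. Sex was not in the model, and its part in the changes above was not tested.

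Azgp1, a secreted zinc-binding glycoprotein, showed a pattern of its own across the genotypes. It read 9.58, 9.53, 9.20 and 9.07 in wild type and 8.44, 8.45, 8.12 and 8.02 in double mutants, 2.14-fold lower without overlap (-1.10 ± 0.18, adjusted p = 0.00025). The double mutant level was near that of Vhl mutants (8.5, difference -0.26, adjusted p = 0.48) and far above that of Pbrm1 mutants (5.0, difference 3.24, adjusted p = 2.8e-10). Its interaction was 4.09 (adjusted p = 6e-09).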

How the data were processed

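Affymetrix arrays were hybridised with biotin-labelled RNA that Trizol had extracted from mouse kidney cortex, per the labels' protocols. For the log2 values they deposited, the authors used RMA and version 1.4 of Affymetrix Expression Console (source: the submitters' processing notes), which gives 1 value per probe set for 41345 probe sets on 16 arrays. Array number limits the precision.

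Of these probe sets 23521 carry 1 gene symbol in the platform annotation and 1814 several, while 16010 are not listed in it. By Entrez ID 23328 matched RefSeq on GRCm38.p6. Where a gene had several probe sets (1082 genes), the one with the highest mean was used, which left 22180 genes. The limma model (limma 3.58.1, R 4.3.3) had the 4 groups as fixed effects, the description number as a random block (correlation 0.0838) and a variance trend. Tests were two-sided, with Benjamini-Hochberg adjustment over all genes. A gene is called at an adjusted p under 0.05. On simulated data of this comparison, run on 22180 genes, 90% of genes changed 1.5-fold and 100% of those changed 2-fold were recovered. In that run 15 genes without a planted change were also called, and 0 were called in a run with none planted. The simulated noise was independent for each array, so arrays that share an animal or differ in strain are not represented.

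Named genes are the 12 largest rises and falls above background without overlap, up to 4 each way with a group below background, up to 5 called members per list and direction, genes of the background sentences, called neighbours of the deleted genes, and up to 3 uncalled members per list. Members and lists were chosen with earlier results of these data known. Other scalings, filters, blocks and left-out arrays were tried. Same replicate numbers did not pair arrays: correlations of deviations across groups were -0.074 to 0.059 in 24 pairs, with 0 over 0.1.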

Additional observations from a re-analysis of the deposited data

Results flagged for a closer look

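Genes whose double mutant effect differed from the sum of both single effects were picked out by the interaction test among the 53 genes with the largest changes or named in the background. Wild type enters this test, so strain and the transgene cannot be told apart from the deletions in it. Acute phase and immune genes with a positive interaction (log2) were Fgg (1.96), Fga (1.32), Lcn2 (1.78), Osmr (0.88), Stat3 (0.59), C4b (2.42) and Hc (2.34). In the Serpina cluster it was positive for Serpina10 (2.33) and Serpina6 (2.56) and negative for Serpina1d (-7.27) and Serpina1c (-2.38). The copied ribosomal genes split in the same way, with 1.87 for Rps3a1 and -3.51 for Rps13, as did the TRIM5-like pair, with 1.46 for Trim12c and -2.28 for Trim12a. Double mutant levels of Serpina1d, Serpina1c and Rps13, and wild-type levels of Ifi44l, Sorcs1 and Trim12c, were below background, so the interaction values of these genes are given as fitted and their size is not measured. Ifi44l (2.32), Sorcs1 (1.41), Ces1g (1.6), Cpn1 (0.92) and Azgp1 (4.09) were positive. Negative values were found for Slc16a5 (-0.90), Vmn1r20 (-2.51), a vomeronasal receptor gene, and Slc34a1 (-0.25), the main phosphate transporter of the proximal tubule.

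In 4 of those 53 genes a single array stood apart from the rest of its group by Dixon's test. Wild-type replicate 3 did so for Trim12a (5.42, the others 5.91 to 6.00), Slc46a3 (9.12, the others 8.95 to 8.98) and Umod (11.91, the others 12.03 to 12.05). Double mutant replicate 3 did so for Fgb (4.75, the others 5.94 to 6.12). Chance marks about 1 in 20 groups.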

How the results depend on the processing

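The count of 2706 genes against wild type was 2640 with arrays centred on their medians, 2867 after quantile normalization, 2685 without dim genes and 2621 with probe sets averaged. It was 1729 with arrays averaged per description number, 796 with a minimum change of 1.5-fold, 1212 without double mutant replicates 1 to 3, and 1339 averaged per number with replicate 3 placed with replicate 4, a setting chosen after seeing the data. Under these settings (without the one that leaves out replicates) the counts were 710, 408 and 489 against Vhl mutants and 1398, 748 and 1227 against Pbrm1 mutants. The interaction count of 583 became 99, 340 and 51, with 884 without the random block, 337 without a variance trend and 918 with array weights. Leaving out single arrays gave 2039 to 2530 against wild type, 1089 to 1376 against Vhl mutants, 1792 to 2057 against Pbrm1 mutants and 422 to 692 for the interaction. The higher and lower calls against wild type were 1236 and 1404 when centred and 1436 and 1431 after quantile normalization, beside 1473 and 1233.

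With the replicate number as a fixed effect (replicate block) 3075 genes were called against wild type, 1702 against Vhl mutants, 2552 against Pbrm1 mutants and 839 for the interaction, but the numbers did not pair the arrays. Hif1a turned to 0.98 with its probe sets averaged, by that construction, since its other probe set moved the other way. Uncalled genes near 0 changed sign: Il6 to 0.031 without wild-type replicates 1 and 2, and Fbp1 to 0.025 after quantile normalization and 0.012 without wild-type replicates 3 and 4. Of 302 named genes, calls were lost for 59 without wild-type replicates 1 and 2, 49 without 3 and 4, 84 without double mutant replicates 1 to 3, and 90 averaged per number with replicate 3 placed with 4. For the other changes the cause was not tested. Signal over background limits genes near 3.33, among them Il6.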

Other observations

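Carbonic anhydrases other than Car9 and iron genes also changed. Car13, a cytosolic carbonic anhydrase, rose from a mean of 5.6 to 6.36 (0.77 ± 0.11, limma adjusted p = 5.1e-05), while Car4, a membrane-bound form of the proximal tubule, read 9.65, 9.54, 9.61 and 9.34 in wild type and 8.76, 8.75, 9.03 and 9.02 in double mutants (-0.64 ± 0.13, adjusted p = 0.002). Slc39a14, an importer of zinc and iron, rose by 0.66 ± 0.10 and was above Vhl mutants by 0.89 and above Pbrm1 mutants by 0.68. Slc40a1, the iron exporter ferroportin, read 8.15, 8.14, 8.47 and 8.42 against 8.03, 7.85, 7.77 and 7.85 (-0.42 ± 0.09, adjusted p = 0.0031), with 8.28 in Vhl and 7.58 in Pbrm1 mutants. Of 22 iron and heme genes 3 rose and 4 fell.

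Of 18 p53 targets 3 rose and 1 fell. Beside Cdkn1a, Tnfrsf10b, a death receptor, rose by 0.80 ± 0.14 (adjusted p = 0.00037), while Ccng1, cyclin G1, read 10.32 to 10.44 in wild type and 10.06 to 10.16 in double mutants and fell by 0.26 on the log2 scale. Of 17 genes of the unfolded protein response 2 fell. Hspa5, the chaperone BiP, read 9.01, 9.01, 8.65 and 8.36 against 8.39, 8.36, 7.92 and 8.18 (-0.55 ± 0.13, adjusted p = 0.0057), so the groups overlapped in wild-type replicate 4. Aldh1a7, an aldehyde dehydrogenase, averaged 5.93 in wild type, 6.69 in Vhl mutants and 6.79 in double mutants, and 8.20 in Pbrm1 mutants, from which double mutants differed by -1.42 (adjusted p = 0.00016).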
